A study of Homo sapiens with 4 samples.

Results

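The library of 293T cells transfected with a miR-122 mimic was compared, gene by gene, with the library of cells that received a control RNA. Genes entered the comparison when their FPKM, the read count scaled to gene length and library depth, was at least 1 in either library, which took 10240 of the 58243 genes listed. Of these, 6575 were protein-coding, 1906 were long noncoding RNAs, and the others were mostly pseudogenes and small RNAs. Of the protein-coding genes, 6573 were above 0.004, the level the study used for detection, in both libraries and could be given a ratio. CPT1A, with an FPKM of 1.00034 with the control RNA and 0.856983 with miR-122, was the gene just inside the limit, and STX7, with 0.999953 and 0.93849, was the gene just outside it. The minimum was passed in both libraries by 6133 of the protein-coding genes, in the control RNA library only by 262, and in the miR-122 library only by 178.

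293T is a human embryonic kidney line that carries the SV40 large T antigen, and a mimic is a synthetic duplex in which the guide strand is a copy of the natural miRNA. All 4 groups were of this line. They received a control RNA, a miR-1 mimic, a miR-122 mimic, or a miR-124 mimic. The labels place the harvest 48 h after transfection, whereas the methods of the study give a shorter time. Each condition was represented by 1 library, so no test, p-value, or SD was possible, and an effect of the mimic cannot be told apart from a difference between culture wells or library preparations. The level of the miRNA in the cells was not measured in these libraries. The miR-1 and miR-124 libraries were used here to ask whether a difference from the control RNA was also a difference from other mimics.

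Mature miRNAs guide Argonaute proteins to mRNAs, mostly through pairing of the seed, bases 2 to 8 of the miRNA, with sites in the 3′ UTR, and paired mRNAs are destabilized and translated less. miR-122 is the dominant miRNA of hepatocytes, where it is known for its part in lipid and cholesterol metabolism and in the replication of hepatitis C virus. 293T cells are not liver cells. None of 10 hepatocyte markers reached an FPKM of 1 in the control RNA or the miR-122 library, and ALB, which encodes serum albumin, had 1 read with the control RNA and 0 with miR-122. Of 12 markers of the line, 6 were measured, among them the filament genes VIM, KRT8, KRT18, and NEFL, whereas the kidney genes PAX2 and PAX8 had at most 0.0492 and 0.0108 and INA was listed at 0 in each library. None of 4 neuronal and 4 blood markers, 1 of 5 muscle markers (MYOD1), and 2 of 4 fibroblast markers (COL1A1 and LUM) reached an FPKM of 1. The length behind FPKM includes introns, so these counts do not compare the markers by reads. MYOD1 passed with 29 reads in the control RNA and 17 in the miR-122 library. The neuronal genes MAP2, SYT1, and RBFOX3 had more reads in each and did not pass, whereas SNAP25 had fewer.

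The sequences that define a target site are shown first. The mature miRNA, hsa-miR-122-5p, is 22 bases long and lies on chromosome 18, from 58451088 to 58451109 on the plus strand of GRCh38.p14, as given by RefSeq. Its seed is in capitals.
hsa-miR-122-5p: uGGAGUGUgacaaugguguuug

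The word ACACTCCA, which pairs with the whole seed and has an A opposite base 1, is called an 8mer. ACACTCC is a 7mer-m8, CACTCCA is a 7mer-A1, and CACTCC is a 6mer. The words were searched on the sense strand of 3′ UTRs, taking for each gene the longest in GENCODE release 44, and a gene was placed in the best class it held. Of the 6573 genes, 197 (3.0%) had an 8mer, 332 (5.05%) a 7mer-m8, 963 (14.7%) a 7mer-A1, and 913 (13.9%) a 6mer only. Sites of genes that the results below turn on are given as 22 bases of the mRNA, 5′ to 3′, ending opposite base 1 of the miRNA, with coordinates in GRCh38 and the site in capitals.
PIGS (chr17:28554068-28554089, minus strand, 8mer): gcaaccaaagtacaACACTCCA
LMNB2 (chr19:2428184-2428205, minus strand, 8mer): aacttttttgtacaACACTCCA
CLIC4 (chr1:24841167-24841188, plus strand, 8mer): tctttaatttggagACACTCCA
RABL6 (chr9:136841134-136841155, plus strand, 8mer): ggcactcctcccaaACACTCCA
CEP55 (chr10:93528254-93528275, plus strand, 8mer): cctatctacctttgACACTCCA
KIF11 (chr10:92654124-92654145, plus strand, 8mer): aaaggtacaccactACACTCCA
YKT6 (chr7:44212656-44212677, plus strand, 8mer): cattaatgatattaACACTCCA
PKM (chr15:72199123-72199144, minus strand, 8mer): ctgtcctgcagcaaACACTCCA
SLC7A5 (chr16:87830440-87830461, minus strand, 8mer): gtccctttttctccACACTCCA
SLC7A1 (chr13:29513382-29513403, minus strand, 8mer): tccatgaaattgtgACACTCCA
SLC1A5 (chr19:46774973-46774994, minus strand, 7mer-m8): ccacaataacagaaACACTCCc

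Genes with a strong miR-122 site had lower ratios in the miR-122 library, and the medians followed the order of the site classes. The median log2 ratio to the control RNA was -0.116 for genes with an 8mer, -0.046 with a 7mer-m8, -0.011 with a 7mer-A1, 0.034 with a 6mer, and 0.043 with none, against 0.027 over all 6573 genes. Ratios below 1 were found for 71.1% of the 8mer genes and 41.4% of the genes without a site. With miR-1 and miR-124 the medians of the 8mer genes were -0.044 and 0.006, and those without a site 0.031 in both. The 7mer-m8 genes were at -0.058 with miR-1 and 0.005 with miR-124, and the 7mer-A1 genes at -0.024 and -0.023. The 7mer-m8 median was thus lower with miR-1 than with miR-122, and the 7mer-A1 median was lower with either, so only the 8mer class had its lowest median with miR-122. These ratios share the control RNA library, so they are given side by side and not as separate evidence.

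A measure that needs no fold minimum is whether the miR-122 library was the lowest of the 4. It was for 17.3% of the 6573 genes and the highest for 20.3%. Among the 8mer genes it was the lowest for 80 of 197 (40.6%) and the highest for 18 (9.14%). The share of genes for which it was the lowest was 30.4% with a 7mer-m8, 19.3% with a 7mer-A1, 19.1% with a 6mer, and 14.4% with no site.

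Medians were also taken by the number of sites, a split chosen after the values were seen. Genes whose best site was an 8mer had a median of -0.099 with 1 site of at least 7 bases (113 genes) and -0.126 with 2 or more (84 genes). For a 7mer-m8 the medians were -0.044 and -0.055. With miR-1 the same genes had medians of -0.031 and -0.072 for an 8mer and of -0.051 and -0.065 for a 7mer-m8, so genes with several sites were lower there too. Genes with several sites also had longer 3′ UTRs, with medians of 3712 bases against 1856 for the 8mer genes. Among the 4148 genes with no site in the 3′ UTR, 70 had an 8mer word in the coding part, with a median of -0.108, against 0.045 for 3124 genes with no word there. In the library of miR-1 these medians were -0.078 and 0.049, and after the subtraction of trends described below the miR-122 medians were -0.051 and 0.040. None of these 70 was lower than the control by 1.5-fold. Of the 4148 genes, only 4 had an 8mer in the 5′ UTR.

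The ratio also moved with features of the genes that are not sites. Across 6534 genes it had a Pearson correlation of 0.302 with 3′ UTR GC content and of -0.256 with the logarithm of 3′ UTR length, as a description across genes that are not independent. The 8mer genes had a median 3′ UTR of 2522 bases and the genes with no site one of 777 bases, and the GC contents were 48.4% and 45.6%. After a cubic trend with GC content, 3′ UTR length, gene span, and reads was subtracted, the medians were -0.073 for the 8mer genes, -0.032 for a 7mer-m8, 0.040 for a 7mer-A1, 0.032 for a 6mer, and 0.034 without a site. The 8mer and 7mer-m8 genes were still the lowest, but the order of the classes was not kept, since the 7mer-A1 genes lay above those without a site. Genes with an 8mer of miR-1, which have 3′ UTRs of 2800 bases, had a median of -0.066 in the miR-122 library, and of 0.015 after the subtraction. What part of the ratios these features account for was not tested further.

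Against the control RNA alone, 98 protein-coding genes (1.49%) were lower by at least 1.5-fold and 106 (1.61%) were higher. An 8mer was found in 16.3% of the lower genes and in 2.83% of the higher, against 3.0% of all genes, and a 7mer-m8 in 10.2% and 2.83%, against 5.05%. Genes near the minimum weigh heavily in these counts, because 45 of the lower genes reached an FPKM of 1 in the control RNA library only and 51 of the higher in the miR-122 library only. Depth mattered as well. Of genes with under 100 reads over both libraries 35.2% were past 1.5-fold, compared with 4.42% from 100 to below 500 reads, 0.806% from there to below 2000, and 0.647% above. The reads were recovered from the FPKM values, and each ratio is given below with the exact Clopper-Pearson 95% interval of these reads. Such an interval covers counting error only and compares 2 libraries, not 2 conditions. It lay wholly below 1 for 989 genes (15%) and wholly above 1 for 1314 (20.0%), and below 1 for 35.5% of the 8mer genes and 12.3% of the genes without a site.

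Genes that were lower than each of the other 3 libraries by 1.5-fold numbered 17 (0.259%), and 15 (0.228%) were higher. Of the 17 lower genes 70.6% had no site and 23.5% an 8mer or 7mer-m8, against 63.1% and 8.05% of all genes. With at least 100 reads only 4 of the lower genes, each with such an 8mer or 7mer-m8, and 3 of the higher remained. The lower genes were PIGS, TMEM216, VPS37B, and SYT15B. VPS37B and SYT15B were below an FPKM of 1 with miR-122 and entered the comparison through the control RNA library, where they are high. The same holds for KIF11, SLC36A4, and IQGAP1, described further on, and E2F8 entered through the miR-122 library. PIGS encodes a subunit of the transamidase that attaches GPI anchors to proteins. Its FPKM was 4.38 with miR-122, against 7.13 with the control RNA, 6.91 with miR-1, and 6.89 with miR-124. The 3 other libraries thus lay close together and the miR-122 library apart, with a ratio to the control of 0.615 (interval 0.549 to 0.688).

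TMEM216 is a protein of the ciliary transition zone. It had FPKM values of 2.29, 2.82, 1.44, and 2.52 in the control RNA, miR-1, miR-122, and miR-124 libraries, and a ratio of 0.630 (0.453 to 0.869). VPS37B, a subunit of the ESCRT-I sorting complex with 2 sites, the best of them a 7mer-m8, had values of 1.072, 1.074, 0.699, and 1.08 in the same order. SYT15B, of the synaptotagmin family, had 1.03, 0.781, 0.454, and 0.984, but only 87 reads with the control and 34 with miR-122. It has a near-identical copy, SYT15, so its reads are uncertain. Each of these genes was lowest with miR-122, which the rule that named them requires.

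Because so few genes passed 1.5-fold with many reads, a smaller fold was also used, which was chosen after the values were seen. With at least 200 reads, 48 of 5919 genes (0.811%) had a ratio of at most 0.8 to each of the other 3 libraries. For 22 (0.372%) each of the others had such a ratio to miR-122, and these are called higher. An 8mer was found in 16 of the 48 lower genes and a 7mer-m8 in 11, which makes 56.2%, against 8.14% of the 5919 genes. None of the 22 higher genes had either, and 18 of them (81.8%) had no site of any class, against 62.3% of the 5919 genes. The 22 genes are few, and the difference in these shares was not tested. With an FPKM of at least 1 required in both libraries, 39 lower and 17 higher genes remained. Of these 39 lower genes, 22 (56.4%) had an 8mer or 7mer-m8. The rest of the 48 and of the 22 reached an FPKM of 1 only in the library where they are high, so they entered through the difference itself. For 45 of the 48 lower genes the intervals against the control, miR-1, and miR-124 libraries were all below 1. Exons of 26 of the 48 overlap those of another annotated gene, and the reads of both genes cannot be told apart where the counting ignored the strand.

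The same rule was then applied to each library in turn, over 6094 genes with at least 400 reads in the 4 libraries together. It found 58 genes (0.952%) lower with miR-122, 170 (2.79%) lower with miR-1, 48 (0.788%) lower with miR-124, and 72 (1.18%) lower with the control RNA. A miR-122 site of 8mer or 7mer-m8 class was present in 8.16% of the 6094 genes. It was present in 30 of the 58 genes that were lower with miR-122 (51.7%), but in 8.24% of those lower with miR-1, 4.17% of those lower with miR-124, and 6.94% of those lower with the control RNA. For miR-1 sites the share was 38.2% among the genes lower with miR-1 and 10.3% among those lower with miR-122, against 12.1% of all. In the other direction the rule found 22 genes higher with miR-122, 57 with miR-1, 149 with miR-124, and 97 with the control RNA. A miR-122 site of 8mer or 7mer-m8 class was present in 0.0%, 1.75%, 6.71%, and 13.4% of these. A low share of such sites among higher genes was thus seen with miR-1 as well.

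**Figure D1:**
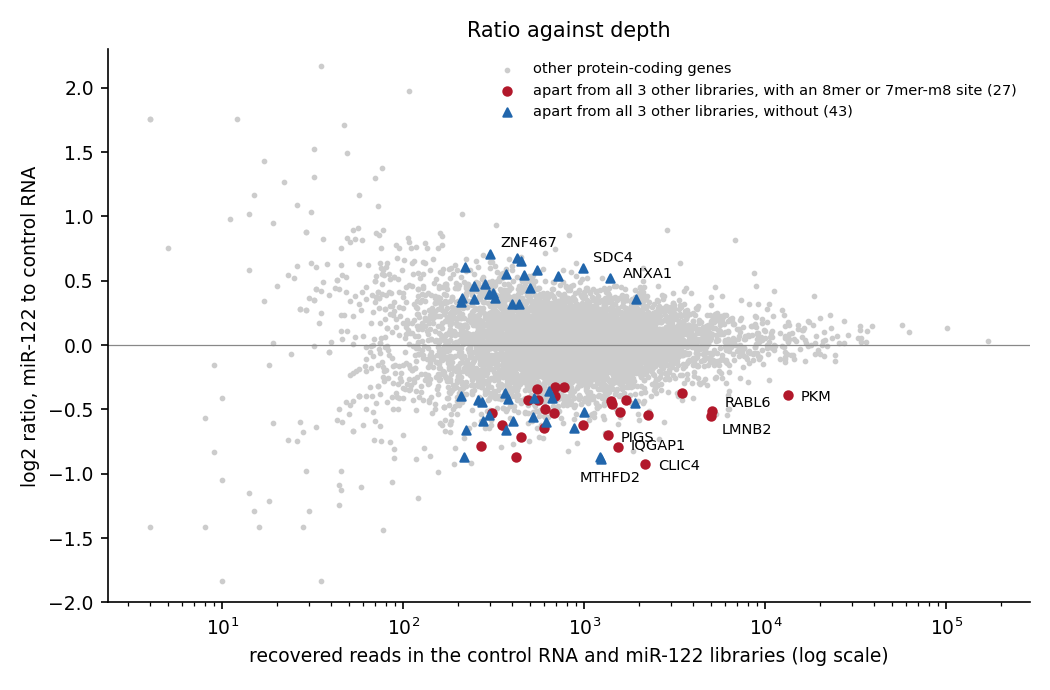
Each point is a protein-coding gene, with the recovered reads of the control RNA and miR-122 libraries together on the x axis (log scale) and the log2 ratio of miR-122 to control RNA on the y axis. Of the 48 genes lower and the 22 higher than all 3 other libraries by the rule with a ratio of 0.8, those with an 8mer or 7mer-m8 site (27, circles) all lie below 0 and those without (43, triangles) lie on both sides; the grey scatter is widest under 100 reads.

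The 10 genes with an 8mer that stood lowest against the other libraries, reporter targets drawn in the figures of the study being passed over, were TMEM216, PIGS, LMNB2, CLIC4, ST6GALNAC4, RABL6, CEP55, KIF11, SLC7A5, and YKT6. Several of them act in the nucleus or in cell division. LMNB2, which encodes lamin B2 of the nuclear envelope, had an FPKM of 11.0 with miR-122, against 16.03, 18.3, and 18.2 with the control RNA, miR-1, and miR-124. Its ratio to the control was 0.685 (0.646 to 0.725), from 3117 reads with the control and 1896 with miR-122. KIF11 is the kinesin that separates the spindle poles, and it had an FPKM of 0.985 with miR-122, against 1.52, 1.504, and 1.33, a ratio of 0.649 (0.569 to 0.740), and 3 sites. CEP55, needed for the last cut between daughter cells, had 1.22, against 1.72, 1.68, and 1.69, with a ratio of 0.709 (0.599 to 0.837). For each of them the miR-122 library was the lowest, which follows from the ranking that named them. The length behind the reads of KIF11 was the smallest that fits, so its reads may be too few and its interval too wide. The same holds for SYT15B and TMEM216 above and for MTHFD2, SLC25A6, TMEM107, and CCND2 below.

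CLIC4, a chloride intracellular channel protein, was the lowest of the group against the control. Its FPKM was 1.19 with miR-122, against 2.25 with the control RNA, 1.93 with miR-1, and 1.72 with miR-124, and the ratio was 0.527 (0.481 to 0.577). The miR-1 and miR-124 libraries were below the control too, so the ratio of miR-122 to miR-124 was smaller in size, 0.689 (0.625 to 0.758). The reverse was seen for RABL6, a Rab-like GTPase, with 9.97 against 14.2, 18.4, and 18.0 in the same libraries. Its ratio was 0.7 (0.661 to 0.741) to the control and 0.543 (0.516 to 0.572) to miR-1.

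Others act in the secretory pathway. YKT6, a SNARE protein of vesicle fusion, had an FPKM of 8.66 with miR-122, against 11.6, 14.0, and 12.9 with the control RNA and the miR-1 and miR-124 mimics, and a ratio of 0.745 (0.675 to 0.821). ST6GALNAC4, a sialyltransferase of O-glycans, had 2.17, against 3.13, 3.46, and 3.45, and a ratio of 0.693 (0.546 to 0.877). Exons of YKT6 overlap those of CAMK2B on the other strand.

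**Figure D2:**
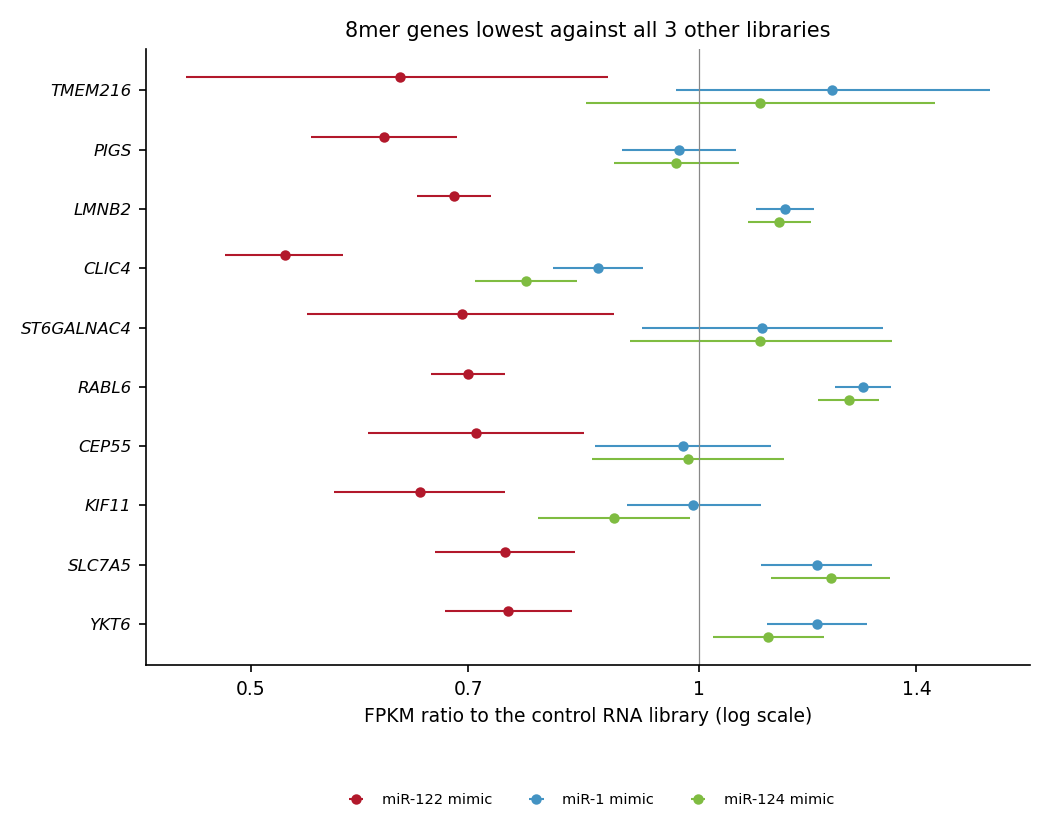
FPKM ratios to the control RNA library (x axis, log scale) of the 10 genes named by the 8mer rule are drawn for the miR-122, miR-1, and miR-124 libraries, with bars for the 95% interval of counting error. All miR-122 points lie left of the other mimics, which follows from the ranking in the rule, and they run from 0.527 for CLIC4 to 0.745 for YKT6.

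Of the gene lists with at least 6 genes measured, carriers of amino acids stood lowest. The lists were chosen with earlier results of these data known, so this rank is a description only. Cells take up glutamine, arginine, and large neutral amino acids through members of the SLC1, SLC7, SLC36, and SLC38 families, and SLC3A2 is the heavy chain that brings SLC7A5 to the plasma membrane. Of 16 genes in the list, 9 were measured, with a median log2 ratio of -0.41, against 0.027 over all genes. Their medians with the miR-1 and miR-124 mimics were -0.057 and -0.28. The ratio was below 1 for 8 of the 9, with the whole interval below 1 for each of the 8. Lower by 1.5-fold was 1, SLC36A4, which passed the minimum FPKM through the control RNA library only. Over all 6573 genes these shares were 45.1%, 15%, and 1.49%. After the subtraction of the trends the median of the list, whose 3′ UTRs have a median of 4363 bases, was -0.26, and against the mean of both other mimics it was -0.17. The list thus holds genes that were lower with other mimics as well.

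SLC1A5, the glutamine carrier ASCT2, separated miR-122 from both other mimics. Its FPKM was 10.6 with miR-122, against 15.4 with the control RNA, 19.8 with miR-1, and 18.9 with miR-124. The ratio was 0.688 (0.631 to 0.749) to the control and 0.535 (0.495 to 0.578) to miR-1. SLC1A5 is 1 of the 26 genes with overlapping exons, so its reads are uncertain to that extent.

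SLC7A5, the light chain LAT1, showed the same order, with 3.24, 3.88, 2.40, and 3.97 in the control RNA, miR-1, miR-122, and miR-124 libraries and a ratio of 0.741 (0.665 to 0.825). SLC7A1, the cationic carrier CAT1 and a target of miR-122 known from hepatoma cells, has 3 sites and had 1.71, 1.66, 1.19, and 1.495, with a ratio of 0.699 (0.630 to 0.774). SLC36A4, with an 8mer, had the lowest ratio of the list, 0.650 (0.546 to 0.772), and was lower in the other mimic libraries too, with FPKM values of 1.03, 0.812, 0.669, and 0.848. These were the members that hold an 8mer or a 7mer-m8.

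The members without such a site did not separate miR-122 from both other mimics. SLC38A1 and SLC38A2, carriers of small neutral amino acids, had log2 ratios of -0.39 and -0.38 with miR-122, compared with -0.36 and -0.38 under miR-1, and -0.39 and -0.31 under miR-124. SLC7A2 had -0.41 with miR-122, -0.025 with miR-1, and -0.49 with miR-124, and was thus apart from miR-1 but not from miR-124. SLC7A6 had -0.26, -0.36, and -0.28 with miR-122, miR-1, and miR-124. SLC3A2, which has no site, was at 0.084, -0.057, and 0.19 in the same order.

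**Figure D3:**
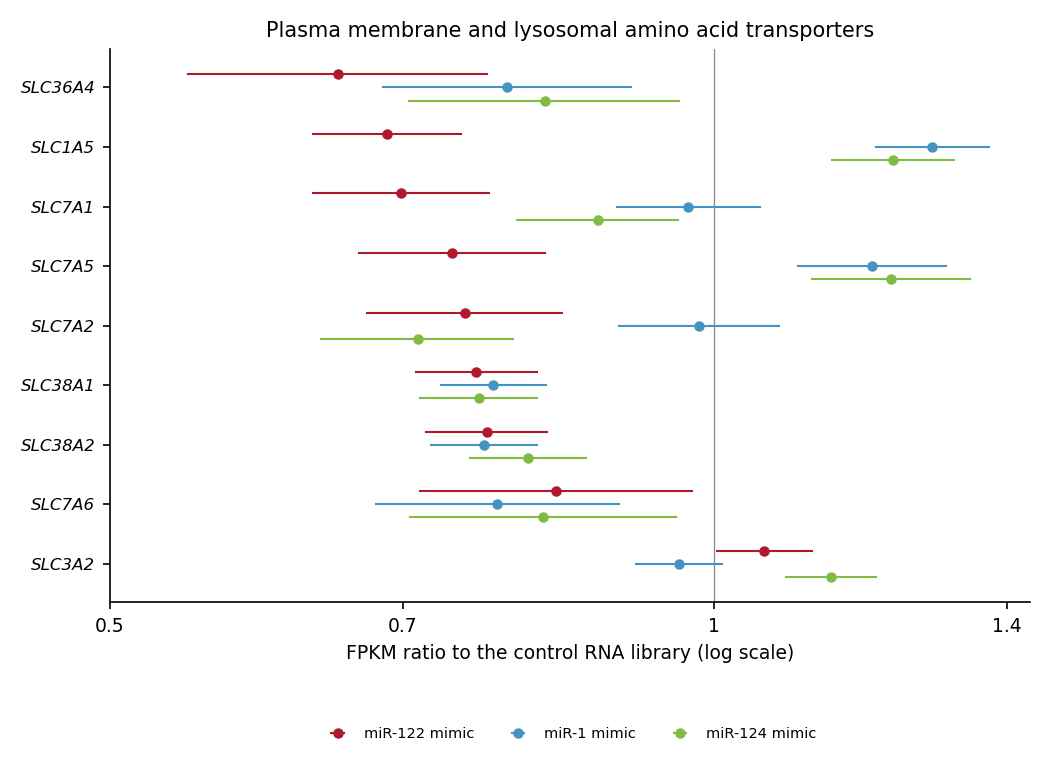
FPKM ratios to the control RNA library (x axis, log scale) are drawn for the 9 amino acid carriers measured, with 95% intervals of counting error, in the 3 mimic libraries. For SLC1A5, SLC7A1, and SLC7A5 the miR-122 interval lies left of both others, whereas for SLC38A1, SLC38A2, and SLC7A6 the intervals of the 3 mimics overlap.

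In carbon metabolism, single genes were lower rather than whole pathways. PKM, the pyruvate kinase of muscle and most dividing cells, carries an 8mer and had an FPKM of 28.0 with miR-122, against 36.6, 38.6, and 40.97 with the control RNA, miR-1, and miR-124, a ratio of 0.766 (0.739 to 0.793) from 7943 and 5404 reads. The 18 glycolysis genes measured had a median of 0.036, and none was past 1.5-fold. PFKL, a phosphofructokinase subunit, was the farthest above the control, at a log2 ratio of 0.46, with 0.48 and 0.52 for the other mimics. GYS1, the glycogen synthase of muscle and most tissues with 3 sites, had 2.70, 3.495, 2.15, and 3.30 in the control RNA, miR-1, miR-122, and miR-124 libraries, and a ratio of 0.798 (0.689 to 0.923).

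MTHFD2, a mitochondrial enzyme of the folate cycle, was lower by more, with 6.59, 5.10, 3.57, and 6.33 in the same order and a ratio of 0.541 (0.479 to 0.610), and its best site is a 7mer-A1. G6PC3, a glucose-6-phosphatase that is expressed in most tissues, had 15.4, 16.9, 11.3, and 18.0 and a ratio of 0.733 (0.667 to 0.804), although its longest annotated 3′ UTR has no site. Exons of MTHFD2 overlap those of SLC4A5, and exons of G6PC3 those of HDAC5, on the other strand. The 23 mitochondrial carriers of the SLC25 family had a median of -0.12, against 0.10 and 0.056 for the miR-1 and miR-124 mimics, and none was past 1.5-fold. Among them SLC25A6, an ADP/ATP carrier with an 8mer, had a ratio of 0.772 (0.721 to 0.826), with an FPKM of 36.5 against 47.3 with the control RNA and 46.8 and 52.9 with the other mimics.

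Of the regulators of the cytoskeleton, IQGAP1, a scaffold protein that binds actin, had an FPKM of 0.776 with miR-122, against 1.35, 1.10, and 1.02 with the control RNA, miR-1, and miR-124, and a ratio of 0.576 (0.518 to 0.641). ARHGAP1, a GTPase-activating protein, had 1.4, against 1.89, 1.803, and 1.89, with a ratio of 0.743 (0.616 to 0.893). Both have a 7mer-m8. Of 12 kinesins, 2 were lower by 1.5-fold, against 1.49% of all genes, namely KIF11 and the transport motor KIF5B (ratio 0.661, interval 0.611 to 0.715). Both have an 8mer, but KIF5B was lower with miR-124 too, at -0.40 on the log2 scale. KIF11, like IQGAP1, passed the minimum FPKM through the control RNA library only, where it is high. KIF1C went the other way, with a ratio of 1.335 (1.249 to 1.427). It was above the control with miR-1 and miR-124 too, by log2 ratios of 0.24 and 0.35. The 12 kinesins had a median log2 ratio of -0.12, and of -0.074 after the trends were subtracted.

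Genes described elsewhere as targets of miR-122 were listed from general knowledge, 52 in all. Of the 31 measured, 22 had a ratio below 1 and 2 were lower by 1.5-fold, CLIC4 and KIF11. KIF11 passed the minimum FPKM through the control RNA library only, where it is high. The median of the 31 was -0.073, and the miR-1 and miR-124 mimics gave 0.010 and 0.080. An 8mer or a 7mer-m8 was present in 18 of the 31. The whole interval lay below 1 for 9 of them and above 1 for 3. Over all genes 45.1% had a ratio below 1, 1.49% were lower by 1.5-fold, 8.05% had such a site, and the interval lay below 1 for 15% and above 1 for 20.0%. ALDOA and CCNG1, both with an 8mer and both long used as targets in liver, had log2 ratios of only -0.14 and -0.099. ALDOA was above the control in the other mimic libraries, by log2 ratios of 0.32 and 0.37, whereas CCNG1 was below it, at -0.23 and -0.18.

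Other lists lay nearer to the median of all genes or moved with the other mimics. The 20 genes of cholesterol synthesis had a median of 0.021 and the 13 of fatty acid and triglyceride synthesis 0.021, and none was past 1.5-fold. The 28 subunits of NADH dehydrogenase had a median of 0.10, and 0.28 under miR-1, and the 81 cytosolic ribosomal proteins 0.027 and 0.19. The 26 genes of the nuclear pore and nuclear transport had a median of -0.13, with 22 below 0, against 45.1% of all genes. Their median was -0.26 with miR-124, and with miR-122 it was -0.024 after the trends were subtracted. The 18 genes of the amino acid and ER stress response had a median of 0.15. With the miR-1 and miR-124 mimics it was 0.087 and 0.065. With miR-122, 16 were above 0 and 2 below, against 45.1% of all genes below 0. The whole interval lay above 1 for 10 of the 18, against 20.0% of all genes. CALR, a chaperone of the ER lumen, had a ratio of 1.34 (1.29 to 1.39), and its FPKM was 175.0 with miR-122, against 130.5, 158.4, and 140.0 with the control RNA, miR-1, and miR-124.

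The replication-dependent histones, whose mRNAs mostly lack a poly(A) tail and so are poorly captured, were spread most. Of 24 measured, 7 were lower and 6 higher by 1.5-fold, against 1.49% and 1.61% of all genes. Their median was 32 reads over both libraries, and 35.2% of all genes with under 100 reads were past 1.5-fold. Only 4 had an interval wholly on 1 side of 1. H2AC25 had many reads, 2652 with the control RNA and 4160 with miR-122, and a ratio of 1.765 (1.68 to 1.85). It was above the control with miR-1 and miR-124 too, by log2 ratios of 0.29 and 0.61. Proteins of the miRNA pathway had a median of -0.11 over 15 genes, with -0.14 and -0.20 in the other mimic libraries. AGO2, the Argonaute that cleaves targets, has a 7mer-m8. It was at -0.55, and at -0.53 and -0.37 under miR-1 and miR-124, so it did not set miR-122 apart. PRKRA of the same list, with an 8mer, was lower with miR-122 than in each other library. Its ratio was 0.73 (0.60 to 0.89) to the control, 0.81 (0.67 to 0.98) to miR-1, and 0.77 (0.63 to 0.93) to miR-124.

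Of the 15 genes that were 1.5-fold higher than the control RNA and both other mimics, 73.3% had no site, against 63.1% of all genes. Among the 17 genes lower by the same rule the share was 70.6%, so lack of a site did not set the higher genes apart. The 3 that passed 1.5-fold with at least 100 reads were TMEM107, CXCR5, and PSG4, with 44, 65, and 78 reads in the control RNA library. CXCR5 and PSG4 reached an FPKM of 1 in the miR-122 library only, where they are high, so they entered the comparison through the difference itself. TMEM107, a protein of the ciliary transition zone, had an FPKM of 3.55 with miR-122, against 2.10, 1.84, and 2.10 in the control RNA, miR-1, and miR-124 libraries, and shares exons with the small nucleolar RNA gene SNORD118. CXCR5, a chemokine receptor of B cells that carries an 8mer, had 1.20, against 0.699, 0.656, and 0.783 in the same libraries, and its exons overlap those of BCL9L on the other strand. PSG4, of a multigene family of pregnancy-specific glycoproteins whose reads are hard to assign, had 1.22, against 0.807, 0.725, and 0.721.

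Among the 22 higher genes of the rule with a ratio of 0.8 were regulators of growth and surface proteins. SDC4, a heparan sulfate proteoglycan, had FPKM values of 2.73, 2.37, 4.14, and 3.03 in the control RNA, miR-1, miR-122, and miR-124 libraries and a ratio of 1.52 (1.33 to 1.72). CCND2, cyclin D2, had 1.49, 1.35, 2.16, and 1.62, with a ratio of 1.45 (1.248 to 1.69). ANXA1, a phospholipid-binding annexin, had 4.94, 5.50, 7.08, and 4.49, and a ratio of 1.43 (1.29 to 1.60). By the rule that selected these genes, the miR-122 library is the highest for each of them. The transcription factors E2F8, which acts in the S phase, and TFAP2C had ratios of 1.38 (1.065 to 1.79) and 1.39 (1.10 to 1.78). The zinc finger gene ZNF467 had the highest ratio of the 22, 1.64 (1.29 to 2.08).

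Long noncoding RNAs were measured by fewer reads. Of 1906, 1851 were above 0.004 in both libraries, with a median log2 ratio of 0.033. Among the 812 with at least 100 reads, 35 (4.31%) were lower by 1.5-fold and 37 (4.56%) higher. Many overlap protein-coding genes, and without strand their reads cannot be told apart from those of the neighbor.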

How the data were processed

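Reads were base-called with CASAVA 1.8, trimmed, and aligned to GRCh38 with HISAT2 2.0.0 by the authors, who deposited FPKM values, 1 for each Ensembl gene in each library. The counting program, its use of strand, and the annotation are not given in the sources used here. No column of authors' comparisons was present.

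The reads behind the deposited FPKM values were recovered. Products of value and length among short genes gave the divisors, 5887055 (miR-122) to 9452232 (miR-1). The length was the distance from gene start to end for 18997 of 32358 genes above 0, a whole number within 10% of it for 11014, and the smallest fitting length for 1713, whose reads may be too few. Whole reads (tolerance 0.003) were found for 98.0%. Introns are part of that length, so levels were not compared between genes.

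No pseudocount was added before the log2 ratios were formed. Genes were named when protein-coding with at least 100 reads: the first 15 per direction past 1.5-fold against all 3 other libraries, the 10 lowest 8mer genes, the 3 farthest from 0 in each list, and the markers. Reporter targets legible in the study's figures were passed over. Of the 3 per list, the text gives those that bear on a result. The rule with a ratio of 0.8, its genes, other members of the lists, MTHFD2, G6PC3, and GYS1 among them, and site number and region were chosen after their values were seen. Members and lists were chosen with earlier results of these data known. The rows matched GENCODE release 44 for 57532 of 58243 genes. Steps were tested on simulated data. Scripts ran in Python 3.11.15 with pandas 2.3.3 and numpy 2.4.6, intervals came from scipy 1.17.1, and figures from matplotlib 3.10.9. Under another setting a median counted as moved when it left the 95% binomial interval of the main median, a gene's ratio when it left its counting interval, and a count when it moved by over 1.5 times. Some genes and 1 gene list are not reported here.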

Additional observations from a re-analysis of the deposited data

How the results depend on the processing

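No paired analysis was possible because a condition stands on 1 library, so that no replicate could be left out either. Where a value moved, the cause was not tested, apart from what a setting does by construction. Against the control RNA the main counts were 98 lower and 106 higher, and against all 3 other libraries 17 and 15, and the 8mer genes lay -0.16 from the genes without a site. With a pseudocount of 1, which draws low values together, the counts were 19, 28, 1, and 4 and the 8mer difference -0.11. With a pseudocount of 0.1, 8 genes were higher than all 3. With a minimum FPKM of 1 in both libraries the counts were 53, 55, 5, and 4, and without a minimum 966, 804, 216, and 217. With a mean of 1 over the 4 libraries, 10 and 6 genes passed against all 3. With at least 200 reads the counts were 46, 30, 2, and 0. A fold of 2 left 18 lower and 21 higher than the control, and a ratio of 0.8 to the other mimics gave 46 and 34 against all 3. After subtraction of the trends with GC content, length, span, and reads, which leaves out genes without a 3′ UTR, 8 genes were higher than all 3, the 8mer difference was -0.11, and the medians of nuclear pore genes, cytosolic ribosomal proteins, and metallothioneins were -0.024, -0.014, and -0.0011.

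With the mean of the miR-1 and miR-124 libraries as the reference, 64 genes were lower and 55 higher, and the 8mer difference was -0.087. The medians against that reference were -0.17 for amino acid carriers, 0.058 for SR proteins and hnRNPs, -0.0040 for nuclear pore genes, -0.12 for cytosolic and -0.077 for mitochondrial ribosomal proteins, -0.089 for NADH dehydrogenase, -0.087 for cytochrome c oxidase, -0.11 for ATP synthase, -0.077 for proteasome subunits, 0.00086 for lysine methyltransferases and demethylases, and -0.088 for tubulins. Of 530 list values 516 moved by less than the criterion, as did 110 of 121 for named genes. The 48 lower and 22 higher genes of the rule with a ratio of 0.8 became 21 and 6 with a pseudocount of 1, 31 and 6 with 500 reads, and 15 and 1 with a fold of 1.4, and 37 were higher with 100 reads.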

Other observations

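Of the 11 iron handling genes measured, the median log2 ratio was -0.15, and for the miR-1 and miR-124 mimics it was -0.097 and -0.18. Processed pseudogenes detected in both libraries numbered 488, of which 111 were lower and 89 higher by 1.5-fold; with at least 100 reads, 2 were lower and 0 higher. The snoRNA genes had a median of 5 reads over both libraries, too few to compare.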
